A study of Homo sapiens with 9 samples.

Results

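LMO2, LYL1, TAL1, LDB1, MYB, RUNX1, HHEX and GFI1 are transcription factors and cofactors that drive or sustain T-cell acute lymphoblastic leukaemia (T-ALL). These 8 genes were taken by symbol from a table of read counts for 17637 genes, and all 8 had a row. The table holds 9 poly(A) messenger RNA libraries of KOPTK1, an established human T-ALL cell line, labelled wild type in every group. In the shControl group (3 libraries) the cells carried a control hairpin RNA, in shDHX15 (3 libraries) a lentiviral hairpin against the RNA helicase DHX15, and in shDHX15_MYC (3 libraries) that hairpin together with the ectopic MYC coding region. The study asked whether MYC acts downstream of DHX15. No group carried added MYC without the DHX15 hairpin, and the column names give 1 hairpin number for all knockdown libraries.

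LMO2 is a LIM-domain protein that binds no DNA itself. It bridges basic helix-loop-helix (bHLH) proteins and GATA factors to LDB1, which self-associates and can hold distant DNA elements together. TAL1 and LYL1 are bHLH proteins that pair with the E proteins TCF3 and TCF12 on E-box DNA, and they are usually silent in maturing T cells but switched on in many T-ALLs. KOPTK1 is known to carry a chromosomal rearrangement that places LMO2 under T-cell receptor control. MYB and RUNX1 act beside TAL1 in a shared regulatory circuit, HHEX is a homeobox gene known as a target of LMO2 in thymocytes, and GFI1 is a zinc-finger repressor that recruits the histone demethylase KDM1A and its partner RCOR1.

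The genes lie on 6 chromosomes in GRCh38, the assembly also called hg38. LMO2 is at chromosome 11, 33858576 to 33892289, minus strand. LYL1 is at chromosome 19, 13099033 to 13103161, minus strand. TAL1 is at chromosome 1, 47216290 to 47232220, minus strand, and GFI1 is on the same chromosome at 92474762 to 92486876, minus strand. LDB1 is at chromosome 10, 102107560 to 102120453, minus strand, and HHEX on that chromosome at 92689951 to 92695646, plus strand. MYB is at chromosome 6, 135181315 to 135219173, plus strand. RUNX1 is at chromosome 21, 34787801 to 36004667, minus strand. None of the 100-base windows of these 8 genes' transcripts was found in a gene elsewhere. On the opposite strand, TAL1 shares 845 exon bases with AL135960.1 and MYB shares 103 with MYB-AS1, so that reads of either strand could have been counted there.

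Promoter sequence of 7 of the 8 genes was matched by symbol to RefSeq (GRCh38.p14), in 10 windows of the 250 bases before a transcript start. LMO2 had no entry. Windows of TAL1, GFI1 and MYB are shown as genes that fell with added MYC, and that of HHEX as one that rose. GFI1 has 3 windows, of which 1 is printed. RUNX1 fell as well, and its window is not printed. Capitals mark 2 motifs: that of the GATA factors, which is spelled AGATAA and lies on the other strand of the outer TAL1 window, and that of the RUNX factors, TGTGGT.
TAL1, outer start, chr1:47232336-47232585, minus strand: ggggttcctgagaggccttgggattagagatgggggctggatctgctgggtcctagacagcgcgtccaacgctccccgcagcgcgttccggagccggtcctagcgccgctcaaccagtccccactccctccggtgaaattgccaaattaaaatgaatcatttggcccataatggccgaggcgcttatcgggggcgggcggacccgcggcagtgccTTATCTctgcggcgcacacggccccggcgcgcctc
TAL1, inner start, chr1:47231716-47231965, minus strand: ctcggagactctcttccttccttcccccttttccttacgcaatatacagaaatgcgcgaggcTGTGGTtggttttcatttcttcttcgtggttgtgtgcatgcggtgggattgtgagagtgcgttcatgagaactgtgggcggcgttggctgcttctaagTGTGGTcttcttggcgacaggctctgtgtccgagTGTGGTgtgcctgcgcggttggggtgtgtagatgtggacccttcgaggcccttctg
GFI1, middle of its starts, chr1:92486100-92486349, minus strand: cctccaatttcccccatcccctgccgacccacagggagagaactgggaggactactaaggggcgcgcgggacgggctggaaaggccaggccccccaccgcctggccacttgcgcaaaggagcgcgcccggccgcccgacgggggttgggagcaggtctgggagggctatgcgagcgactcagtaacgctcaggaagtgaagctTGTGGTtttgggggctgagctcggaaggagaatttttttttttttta
MYB, chr6:135181058-135181307, plus strand: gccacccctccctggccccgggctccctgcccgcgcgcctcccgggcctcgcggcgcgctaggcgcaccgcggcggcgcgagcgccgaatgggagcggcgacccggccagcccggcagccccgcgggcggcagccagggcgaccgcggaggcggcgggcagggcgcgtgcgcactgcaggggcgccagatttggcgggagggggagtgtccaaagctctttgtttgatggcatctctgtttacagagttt
HHEX, chr10:92689705-92689954, plus strand: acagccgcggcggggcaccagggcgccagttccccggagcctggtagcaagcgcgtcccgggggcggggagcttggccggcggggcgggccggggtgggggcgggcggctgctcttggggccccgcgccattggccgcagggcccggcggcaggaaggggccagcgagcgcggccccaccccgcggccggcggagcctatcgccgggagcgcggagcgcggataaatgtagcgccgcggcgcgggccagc
The outer TAL1 window holds 1 AGATAA match, which begins 35 bases before the start, and the inner TAL1 window 3 TGTGGT matches, at 188, 90 and 56 bases. The printed GFI1 window has 1 TGTGGT match at 47 bases. The other GFI1 windows and the RUNX1 window hold neither AGATAA nor TGTGGT. Of the 10 windows, 1 holds AGATAA and 2 hold TGTGGT. On either strand, CACGTG (the E-box of MYC and MAX) and CAGNTG (the E-box of TAL1, LYL1 and the E proteins) had 0 matches in the 10 windows, and so did CAACTG (MYB), which read on the other strand is a form of CAGNTG. Among all 35116 RefSeq promoter windows of this length, 6.34% hold CACGTG, 42.5% CAGNTG, 9.17% AGATAA, 11% TGTGGT and 9% CAACTG. A match describes the letters only, and the absence of one says nothing of binding elsewhere.

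Library totals ran from 42134302 to 59688062 counts. Levels below are CPM, counts relative to library size after TMM scaling, given as mean ± SD of 3 libraries. The upper limit behind a count of 0, taken as 3 counts, lay between 0.0519 and 0.0708 CPM and covers counting error only. From shControl through shDHX15 to shDHX15_MYC, DHX15 was at 280.3 ± 3.43, 166.5 ± 13.8 and 195.2 ± 2.55 CPM and MYC at 109.3 ± 0.603, 86.94 ± 3.78 and 7098 ± 153 CPM, so that both moved as the labels say. DHX15 was higher in every shDHX15_MYC library (192.2 to 196.8 CPM) than in any shDHX15 library (155.5 to 182.1), so these groups differ in more than MYC. The labels do not state whether replicates are separate cultures, so the spread behind each p-value may be technical. The shDHX15 library number 1 stood apart from its group, with its counts at chi-square values over genes of 18.0 and 17.1 per degree of freedom from the others, where the others differed by 4.45 and pairs of the remaining groups by 2.73 to 3.23. Results that change without it are given both ways. T-cell markers were abundant and summed to 2350 to 2477 CPM per library in shControl, 1899 to 1983 in shDHX15 and 1167 to 1194 in shDHX15_MYC.

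Of the 8 factors, 7 were expressed above the filter for testing and LYL1 was not. In shControl, CPM per kilobase of annotated exon, a scale on which genes can be compared, was highest for LDB1 (60.0 ± 1.21), then MYB (54.5 ± 0.55), LMO2 (51.3 ± 0.923), GFI1 (31.9 ± 0.191) and RUNX1 (14.9 ± 0.0844). TAL1 followed at 2.68 ± 0.149, HHEX at 0.224 ± 0.0161 and LYL1 at 0.0359 ± 0.0189. The ranges of neighbours in this order did not overlap. In shDHX15 the order was the same, but LMO2 (37.5 ± 1.85) and GFI1 (34.2 ± 3.02) overlapped. In shDHX15_MYC the order from the top was LDB1 (52.8 ± 1.37), MYB (19.9 ± 0.53), LMO2 (17.0 ± 0.701), GFI1 (9.38 ± 0.372) and RUNX1 (7.63 ± 0.203), and HHEX (1.67 ± 0.219) stood above TAL1 (1.3 ± 0.0207). Counted per kilobase of the longest coding transcript, MYB stood above LDB1 in shControl and shDHX15, and RUNX1 above GFI1 in shDHX15_MYC.

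**Figure D1:**
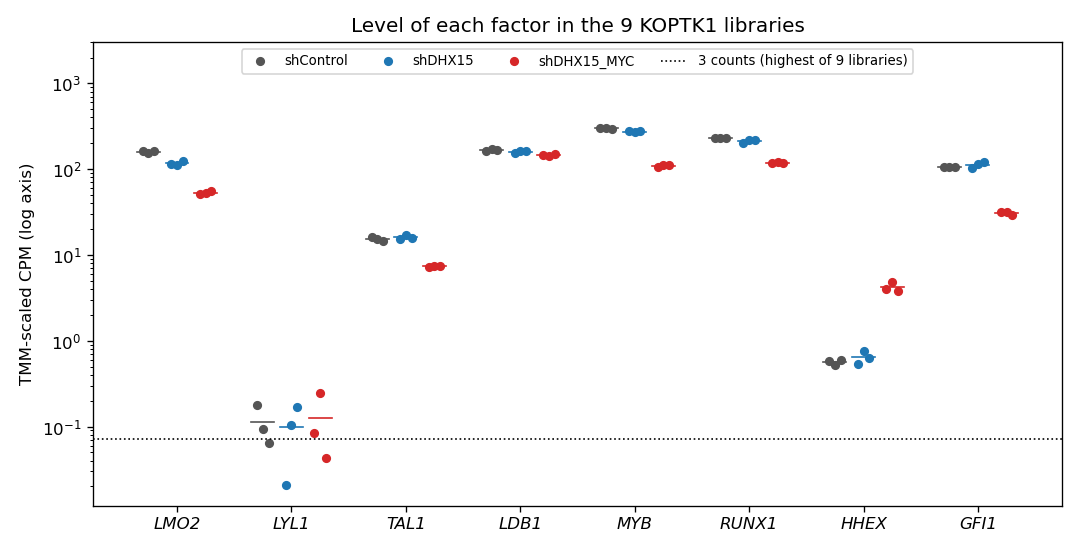
TMM-scaled CPM (log axis) of the 8 factors in each of the 9 libraries, with 1 point per library, a line at each group mean and a dotted line at 3 counts. LMO2 steps down from shControl to shDHX15 to shDHX15_MYC, HHEX is higher in shDHX15_MYC, and LYL1 lies around the dotted line in all groups.

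The DHX15 knockdown went with lower LMO2, the largest change among the 7 tested factors, and with slightly lower MYB and RUNX1. Of the 7, 3 were called lower and 0 higher at an adjusted p under 0.05, where 23.0% of all 15309 tested genes were called lower, 22.0% higher and 45.0% either way. The control and knockdown ranges did not overlap for the same 3, and for 51.1% of all genes. TAL1, LDB1, HHEX and GFI1 were not called. The median log2 fold change was -0.06 over the 7 factors and -0.00471 over all genes. Under total-count scaling, which shifts all genes by 0.0664 on the log2 scale, 1 factor (LMO2) was lower and 1 (GFI1) higher, and over all genes 4576 were higher and 2568 lower in place of 3362 and 3524. Without shDHX15 replicate 1, LMO2, MYB and RUNX1 were lower and GFI1 higher. In bulk RNA, fewer cells of a type and less RNA per cell cannot be told apart.

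Adding MYC to the knockdown left 6 of the 7 factors lower than in shDHX15 and HHEX higher. All 7 were called, where 42.6% of genes were called lower, 42.1% higher and 84.7% either way and the ranges of 85.0% did not overlap, as those of the 7 did not, so that a call alone sets no gene apart in this comparison. LMO2, TAL1, MYB and GFI1 were at least 2-fold lower, 4 of the 6 factors among the well-expressed genes (mean log2 CPM 3 or higher). All 6 were called lower, and of all 10160 well-expressed genes 54.4% were called lower and 15.8% at least 2-fold lower. Under total-count scaling LMO2 (-0.942) and TAL1 (-0.914) were less than 2-fold lower, which left 2 of the 6 beside 11.2% of the well-expressed genes, and a fit of the well-expressed genes alone gave the same 2 and 11.2%. Against shControl the counts were the same, 6 lower and 1 higher (42.5%, 42.0% and, either way, 84.5% of genes; ranges not overlapping for 87.2%). The direction of LDB1 in both comparisons turned with the scaling. Total-count scaling shifts all genes by 0.199 against shDHX15 and 0.265 against shControl, and calls 7679 genes higher and 5348 lower against shDHX15 (6438 and 6528 with TMM) and 8128 and 4893 against shControl (6437 and 6502).

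LMO2 was at 161.1, 156.2 and 161.1 CPM in the shControl libraries, 113.9, 112.9 and 123.3 in shDHX15 and 51.22, 52.21 and 55.38 in shDHX15_MYC. The 3 groups did not overlap, and every knockdown library lay below every control. LMO2 fell by 0.45 on the log2 scale in shDHX15 (SE 0.0404, 1.37-fold, edgeR adjusted p = 1.41e-07). With MYC added it fell by a further 1.14 (SE 0.0423, 2.2-fold, adjusted p = 4.79e-14), to 3.01-fold below shControl (-1.59, SE 0.0424, adjusted p = 5.78e-16). The knockdown change of LMO2 ranked 419 from the bottom of the 10160 well-expressed genes. These calls held under all 16 alternatives in each comparison.

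LYL1, the bHLH relative of TAL1, had 8, 4 and 3 counts in shControl, 1, 6 and 8 in shDHX15 and 4, 12 and 2 in shDHX15_MYC. The groups overlapped throughout. The summed counts of 15, 15 and 18 are 0.103 CPM of the unscaled library totals in shControl (exact 95% Poisson interval 0.0579 to 0.171), 0.095 in shDHX15 (0.0532 to 0.157) and 0.141 in shDHX15_MYC (0.0834 to 0.222), with intervals that cover counting error only. LYL1 was below the expression filter (0.206 CPM) and was not tested, and a difference between groups was not detectable at this depth.

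TAL1 was at 16.12, 15.29 and 14.42 CPM in shControl, 15.16, 16.95 and 15.79 in shDHX15 and 7.28, 7.514 and 7.367 in shDHX15_MYC. The control and knockdown libraries overlapped, and those with added MYC lay below both. The knockdown difference was 0.07 on the log2 scale (SE 0.0737, adjusted p = 0.502). With MYC, TAL1 fell by 1.11 against shDHX15 (SE 0.0781, 2.16-fold, adjusted p = 3.61e-10) and by 1.05 against shControl (SE 0.0788, adjusted p = 9.96e-10).

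LDB1, the scaffold that LMO2 binds, was at 164.0, 170.8 and 167.6 CPM in shControl, 153.4, 164.3 and 163.4 in shDHX15 and 146.8, 143.9 and 151.5 in shDHX15_MYC. It moved least with MYC of the 7 factors tested. The differences were -0.06 in the knockdown (SE 0.0352, adjusted p = 0.164), -0.12 with MYC against shDHX15 (SE 0.0353, adjusted p = 0.00422) and -0.18 against shControl (SE 0.0354, adjusted p = 1.24e-04). Under total-count scaling the last 2 became 0.077 (adjusted p = 0.0473) and 0.081 (adjusted p = 0.0386), and in a fit of the well-expressed genes alone they became 0.077 (adjusted p = 0.0502) and 0.029 (adjusted p = 0.439), so LDB1 has no direction that holds across scalings.

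MYB, a DNA-binding factor of immature blood cells, was at 301.3, 301.2 and 296.1 CPM in shControl, 279.7, 267.8 and 275.9 in shDHX15 and 106.0, 110.4 and 111.5 in shDHX15_MYC. The 3 groups did not overlap. MYB fell by 0.13 in the knockdown (SE 0.0308, adjusted p = 0.00297) and by 1.33 with MYC against shDHX15 (SE 0.0319, 2.51-fold, adjusted p = 1.56e-16). Against shControl it fell by 1.45 (SE 0.032, 2.74-fold, adjusted p = 5.02e-17). Under total-count scaling the knockdown difference was -0.06 (adjusted p = 0.12) and was not called.

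RUNX1, the DNA-binding partner of CBFB, was at 231.3, 233.6 and 233.4 CPM in shControl, 199.8, 218.4 and 215.9 in shDHX15 and 117.6, 122.5 and 116.6 in shDHX15_MYC. The groups did not overlap, and the lowest knockdown value was that of replicate 1. RUNX1 fell by 0.14 in the knockdown (SE 0.0357, adjusted p = 0.00432), by 0.83 with MYC against shDHX15 (SE 0.0365, 1.78-fold, adjusted p = 4.90e-13) and by 0.97 against shControl (SE 0.0365, 1.96-fold, adjusted p = 6.28e-14). Under total-count scaling the knockdown difference was -0.073 (adjusted p = 0.105) and was not called.

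GFI1 was at 105.1, 104.6 and 105.9 CPM in shControl, 101.9, 115.7 and 121.3 in shDHX15 and 31.65, 31.71 and 29.56 in shDHX15_MYC. Knockdown replicate 1 lay below the controls and the other knockdown libraries above them, while all libraries with added MYC lay far lower. The knockdown difference was 0.10 (SE 0.0512, adjusted p = 0.114). It was called higher without shDHX15 replicate 1 (0.172, adjusted p = 1.09e-04) and under total-count scaling (0.17, adjusted p = 0.0121). With MYC, GFI1 fell by 1.87 against shDHX15 (SE 0.0553, 3.65-fold, adjusted p = 2.30e-15), the largest fall among the factors, and by 1.76 against shControl (SE 0.0555, 3.40-fold, adjusted p = 5.50e-15).

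HHEX had few reads, with 26, 22 and 28 counts in shControl, 26, 44 and 30 in shDHX15 and 191, 234 and 177 in shDHX15_MYC. These are 0.5781, 0.5192 and 0.5971 CPM, then 0.5408, 0.7611 and 0.636, then 4.031, 4.844 and 3.791. The control and knockdown libraries overlapped, and those with MYC lay above both. The knockdown difference was 0.20 (SE 0.255, adjusted p = 0.556). HHEX rose 6.47-fold with MYC against shDHX15 (2.69, SE 0.205, adjusted p = 1.09e-09) and 7.43-fold against shControl (2.89, SE 0.213, adjusted p = 7.37e-10). Its mean log2 CPM was 0.27, and of the 4172 genes with a mean log2 CPM under 2, 63.3% were called higher with MYC against shDHX15 and 57.5% at least 2-fold higher. Both shares include genes that passed the filter only through their level in shDHX15_MYC. HHEX was above the filter level (0.206 CPM) in every library.

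**Figure D2:**
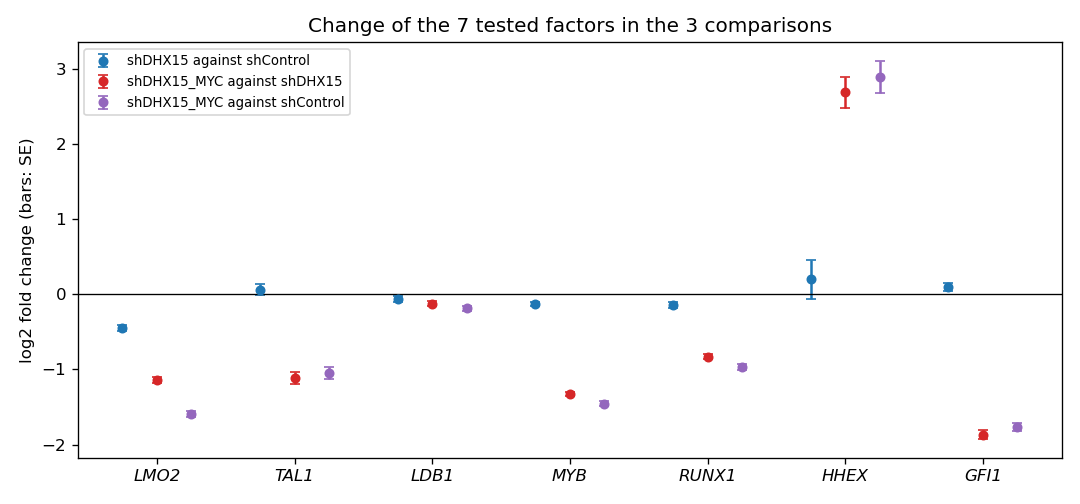
Log2 fold change of the 7 tested factors in the 3 comparisons (points, with bars of 1 standard error). LMO2 is below 0 in the knockdown at -0.45; with added MYC 6 factors lie below 0 and HHEX above, and the sign of LDB1 turns under total-count scaling.

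The partners of LMO2 and LDB1 form a list of 9 LIM-only, LDB and single-stranded-DNA-binding (SSBP) proteins, the last of which stabilise LDB1. Of these, 6 were tested, LMO1 and LMO3 were below the filter and LDB2 was not analysed here. In the knockdown 2 rose and 2 fell, with a median of -0.06, where 22.0% of all genes rose and 23.0% fell. SSBP2 fell from 81.45 to 64.78 CPM (-0.33, adjusted p = 1.22e-05), and SSBP3 and SSBP4 rose by 0.13 and 0.17. With MYC against shDHX15, 5 fell and 1 rose (median -0.51), where 42.6% of all genes fell, 42.1% rose and their median was 0.00578. The 5 that fell are the 5 well-expressed ones, of which kind 54.4% fell. SSBP2 fell by 1.94 to 16.82 ± 0.446 CPM and SSBP3 by 0.69, while LMO4, a LIM-only relative of LMO2, rose by 0.83 to 9.419 ± 0.786 CPM. LDB1 is among the 5, and under total-count scaling 4 were lower and 2 higher.

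Among 12 bHLH and ID proteins, 10 were tested. The E proteins TCF3 and TCF12, partners of TAL1, were at 291.5 and 171.9 CPM in shControl, 269.9 and 131.0 in shDHX15, and 216.8 and 100.4 in shDHX15_MYC. TCF12 fell by 0.39 in the knockdown (adjusted p = 2.10e-07) and by 0.38 with MYC (adjusted p = 2.74e-08). TCF3 differed by -0.11 in the knockdown (adjusted p = 0.0694) and fell by 0.32 with MYC (adjusted p = 9.05e-06). The ID proteins, which bind E proteins and keep them off DNA, differed among themselves: ID3 fell by 0.55 in the knockdown, and with MYC ID2 rose by 1.33 to 14.73 CPM, ID4 by 2.06 to 10.79 and ID1 by 0.94 to 2.336. ID3 was not called with MYC (-0.10, adjusted p = 0.0807). TCF4, a further E protein, went from 1.193 to 0.5158 CPM in the knockdown and to 4.33 with MYC. OLIG2 was at 0 counts in all shControl libraries, 0.1673 CPM in shDHX15 and 0.926 in shDHX15_MYC, and TAL2 at 0.08955, 0.06753 and 0.8978 CPM. OLIG2 and TAL2 passed the filter only through their level in shDHX15_MYC, so that they had to differ there. Of the other 8, 1 rose and 3 fell in the knockdown (median -0.02; ID1, ID2 and ID4 rose without shDHX15 replicate 1), beside 22.0% and 23.0% of all genes. In shDHX15_MYC against shDHX15, 4 of the 8 rose and 3 fell (median 0.42), beside 42.1% and 42.6%.

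Of 11 GATA, RUNX and ETS factors, which occupy the same regulatory DNA as TAL1 and LMO2, 10 were tested and GATA1 was below the filter. In the knockdown 3 rose and 3 fell (median 0.01; under total-count scaling 1 was lower), where 22.0% of all genes rose and 23.0% fell. FLI1 fell from 185.7 to 148.2 CPM (-0.33, adjusted p = 6.95e-07). With MYC against shDHX15, 8 fell and 2 rose (median -0.83); the 8 are among 9 well-expressed members, and 54.4% of all well-expressed genes fell. ERG fell from 53.34 to 8.89 ± 0.145 CPM (-2.58, SE 0.0542, adjusted p = 2.72e-17), and ETS1 from 560.5 to 188.2 ± 5.59 (-1.57). FLI1 and ETV6 each fell by 1.26. The RUNX family split: RUNX1 and RUNX2 fell (by 0.83 and 0.62), as did their partner CBFB (by 0.82), while RUNX3 rose from 121.4 to 344.4 ± 8.38 CPM (1.5, SE 0.0476, adjusted p = 5.70e-15). The GATA family split as well, with GATA3, the T-cell member, lower by 0.41 at 106.1 CPM and GATA2, a stem- and mast-cell member, higher by 2.75 at 14.78 CPM. None of these named directions turned under total-count scaling.

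Genes known as TAL1 or LMO2 targets in T cells form a list of 15, which includes MYB, RUNX1, HHEX and LYL1, and 13 were tested. In the knockdown 1 rose and 3 fell (median -0.03; 2 rose and 1 fell under total-count scaling), beside 22.0% and 23.0% of all genes. ALDH1A2, a retinoic-acid-producing enzyme, fell from 19.58 to 9.771 CPM (-1.0, adjusted p = 5.36e-09) and CDK6, a cell-cycle kinase, rose from 533.6 to 721.4 (0.44, adjusted p = 1.42e-09). With MYC against shDHX15, 5 rose and 8 fell (median -0.63), beside 42.1% and 42.6% of all genes; of the 8 well-expressed members 7 fell, beside 54.4%. STAT5A fell from 653.1 to 294.0 CPM (-1.15), ARID5B from 35.28 to 15.69 (-1.17) and CDK6 to 467.3 (-0.63), and ALDH1A2 rose to 29.9 (1.62). MEF2C rose by 3.19 to 3.495 CPM.

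Of 8 genes that GFI1 is known to repress, SPI1 passed the filter only through its level in shDHX15_MYC, so that it had to differ there, and is left out of the counts. Of the other 7, 2 rose and 1 fell in the knockdown (median 0.22; ID1, ID2, CDKN1A and HOXA9 rose without shDHX15 replicate 1), beside 22.0% and 23.0% of all genes. With MYC against shDHX15, where GFI1 itself fell, 6 of the 7 rose and 0 fell (median 1.33), beside 42.1% of all genes. CDKN1A, an inhibitor of cell-cycle kinases, rose from 118.2 to 666.5 ± 4.73 CPM (2.49, SE 0.0509, adjusted p = 1.95e-17). CSF1, a macrophage growth factor, rose from 1.194 to 17.54 ± 0.604 CPM (3.84) and HOXA9 from 3.665 to 22.41 ± 1.23 (2.62). IL7R, the interleukin-7 receptor chain, rose by 1.08 to 9.341 CPM after a fall of 0.42 in the knockdown. GFI1B was not called (0.41, adjusted p = 0.187), and SPI1 was at 0 counts in all shControl libraries. Of the 7, 3 had a mean log2 CPM under 2, and 2 of these rose, where 63.3% of such genes did. That share includes genes that, like SPI1, passed the filter only through shDHX15_MYC. The part of GFI1 in these changes was not tested.

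Other transcription factors that are switched on ectopically in subtypes of T-ALL were low in shControl and shDHX15, at 3.665 CPM or less on average. Of 15 listed, 13 were tested, TLX1 was not analysed here, MYCN was below the filter, and 12 of the 13 had a mean log2 CPM under 2. SPI1 passed the filter only through shDHX15_MYC and is left out of the counts. Of the other 12, 3 rose and 1 fell in the knockdown, beside 22.0% and 23.0% of all genes: HOXA5, HOXA9 and HOXA10 rose and MYCL fell. Against shDHX15 the 12 rose with MYC (median 2.48), 11 of them genes with a mean log2 CPM under 2, of which kind 63.3% rose. The 63.3% includes genes that, like SPI1, passed the filter only through shDHX15_MYC. HOXA7 went from 0.3039 to 8.372 CPM, NKX2-5 from 2.084 to 11.12 and TLX3 from 0.3261 to 3.369, and HOXA9, at 22.41 CPM, was the only one of the 13 not under 2 on that scale.

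**Figure D3:**
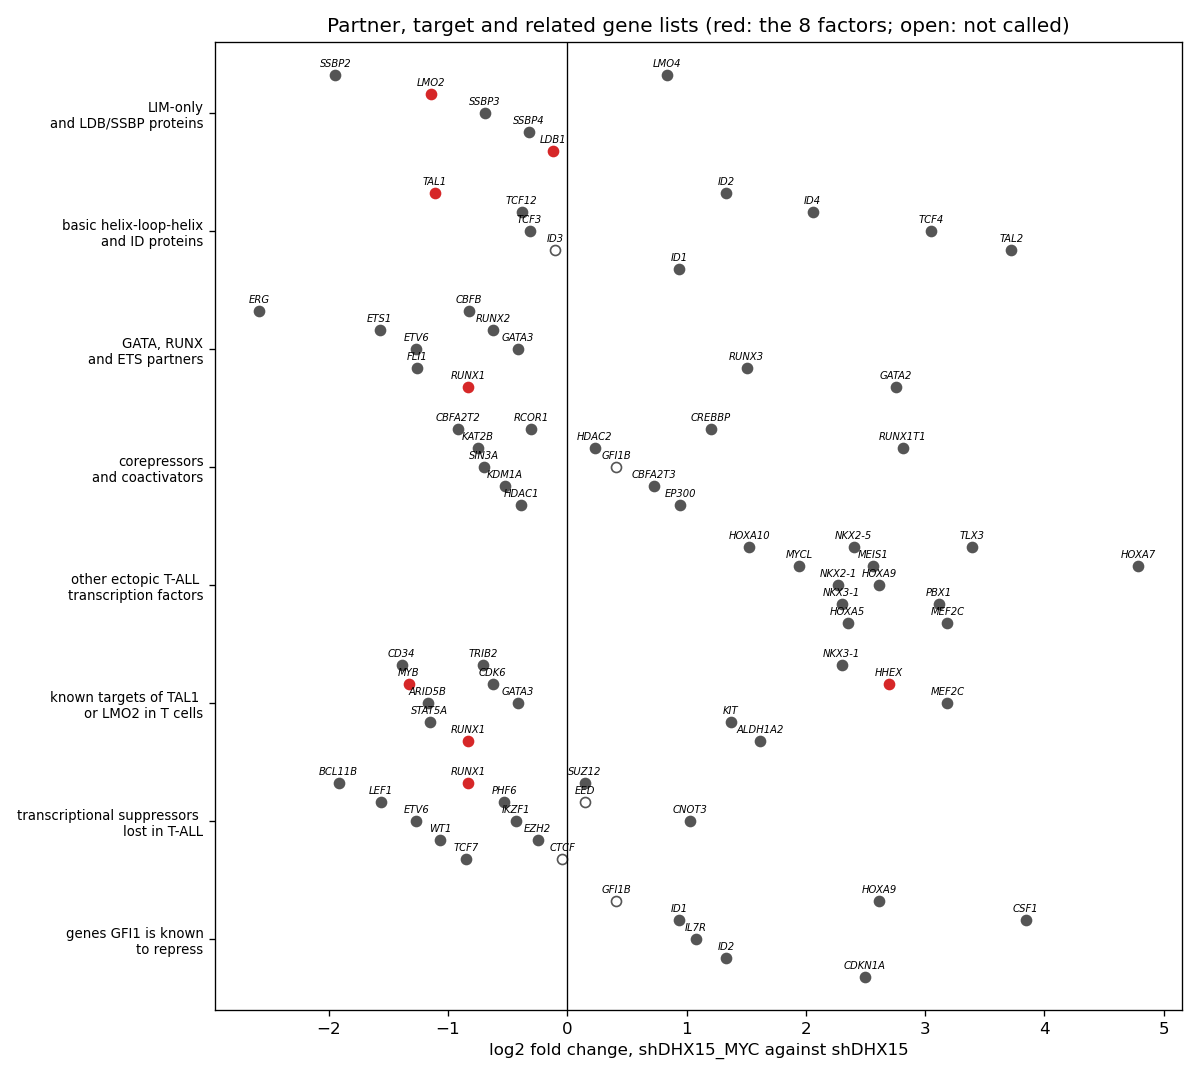
Log2 fold change of shDHX15_MYC against shDHX15 (horizontal axis) for each tested gene of the related lists, with the factors in red and genes that were not called as open circles; OLIG2 and SPI1, with 0 counts in all shControl libraries, are left out, and TAL2 and RUNX1T1 passed the filter only through shDHX15_MYC. Ectopic T-ALL factors and genes that GFI1 represses lie to the right of 0, and most GATA, RUNX and ETS factors to the left. LDB1, CTCF and ID3 change sign under total-count scaling.

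Most markers of T cells fell in the knockdown, and most fell with added MYC. Of 11 T-cell markers, 8 fell and 1 rose in the knockdown (median -0.40), beside 23.0% and 22.0% of all genes. A total of 10 fell with MYC against shDHX15 (median -0.69), beside 42.6% of all genes, and 10 of the 11 are well-expressed, of which kind 54.4% fell. CD1B, of immature thymocytes, fell by 0.82 and then by 3.25. The 7 measured myeloid markers summed to 0.708 to 1.312 CPM in shControl, 0.6573 to 0.9116 in shDHX15 and 7.328 to 9.059 in shDHX15_MYC, with CSF1R and CD33 at 0 in shDHX15. The 7 B-cell markers summed to 51.32 to 53.51, 46.85 to 49.28 and 105.3 to 109.6 CPM, mostly CD79A (99.85 CPM in shDHX15_MYC), with EBF1 at 0 in shControl and CD22 at 0 in shDHX15. PAX5 was tested only through its level in shDHX15_MYC. Of the other 4 tested, 2 rose with MYC against shDHX15, beside 42.1% of all genes. CD79B fell, from 9.519 to 5.757 CPM. The 5 natural-killer markers summed to 30.37 to 34.79, 33.94 to 37.97 and 97.97 to 104.0 CPM, mostly NKG7. The 10 erythroid and megakaryocyte markers summed to 22.42 to 23.77, 26.22 to 28.8 and 13.41 to 16.08 CPM, mostly GP1BA and EPOR. GP1BA averaged 13.63, 17.96 and 8.144 CPM and EPOR 8.202, 8.116 and 3.048. SLC4A1 was at 0 in shControl and shDHX15 and HBB at 0 in shDHX15_MYC. With MYC against shDHX15, GP1BA, EPOR and HBA2 fell and ITGA2B rose, from 0.3233 to 1.96 CPM. KLF1 and SLC4A1 rose as well, but passed the filter only through shDHX15_MYC. The 11 markers of adherent and packaging cells summed to 29.99 to 31.25, 23.13 to 24.51 and 49.64 to 50.39 CPM, with COL1A2 at 0 in shControl. The part of these shifts in the values of the factors was not tested.

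The protein-coding genes beside the factors, up to 2 on each side, number 32, and 29 were tested. Only genes with a row in the count table were taken. Their order is that of the reference genome, and the rearrangement at LMO2 in KOPTK1 may have changed it there. The breakpoint was not determined here. Some lie far off, with MTFR2 1011.9 kb from MYB and CYP26C1 365.2 kb from HHEX. Of the 29, 18 rose and 10 fell with MYC against shDHX15 (median 0.37), beside 42.1% and 42.6% of all genes and a median of 0.00578. The 18 include CYP26C1, which passed the filter only through its level in shDHX15_MYC, so that it had to differ there. Around LMO2, CD59 fell by 0.81 and FBXO3 by 0.35, NAT10 rose by 0.56, and CAPRIN1 was at -0.17 and changed sign under total-count scaling. Beside TAL1, STIL and CMPK1 fell by 0.40 and 0.35, less than TAL1 itself. On either side of GFI1, RPAP2, GLMN and EVI5 rose by 0.42, 0.37 and 0.50, and RPL5, a ribosomal protein gene, fell by 0.22. Beside HHEX, IDE and EXOC6 rose by 0.59 and 0.47, KIF11 was at -0.11 and changed sign under total-count scaling, and CYP26C1, tested only through its level with MYC, was at 0.0424 CPM in shDHX15 and 1.053 in shDHX15_MYC. The 4 neighbours of MYB rose by 0.10 (HBS1L) to 1.36 (ALDH8A1), and of RUNX1's, RCAN1, SETD4 and CBR1 rose by 0.28, 0.46 and 0.27. Beside LDB1, PPRC1 and NOLC1, which act in mitochondrial gene control and nucleolar assembly, rose by 2.43 and 1.52, KCNIP2 fell by 1.24, and HPS6 was not called (-0.12, adjusted p = 0.324). LYL1, at under 1 CPM, lies 0.2 kb from NFIX, which fell by 1.06, and 1.7 kb from the transfer-RNA methyltransferase TRMT1, which rose by 2.22; beyond these, DAND5 fell by 1.93 and NACC1 rose by 0.93.

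**Figure D4:**
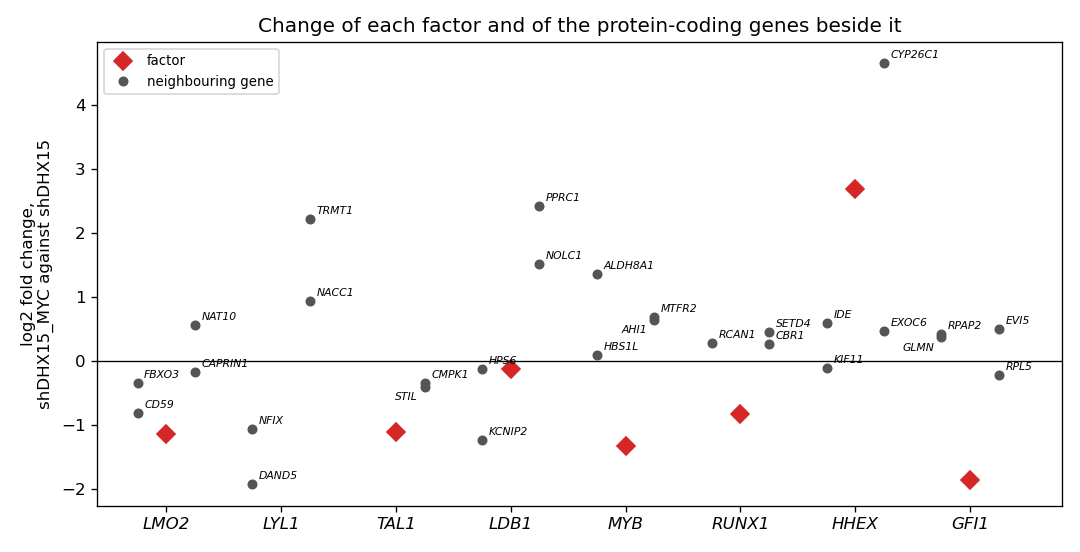
Log2 fold change of shDHX15_MYC against shDHX15 for each tested factor (red diamonds) and for up to 2 protein-coding neighbours on each side (grey points; left and right offsets show the lower and higher coordinate side). Neighbours of GFI1, MYB and RUNX1 lie mostly above 0 while these factors lie below it. LDB1, CAPRIN1, KIF11 and HPS6 change sign under total-count scaling. Neighbours are taken by reference coordinates, which the LMO2 rearrangement of KOPTK1 may not keep.

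The genes whose log2 CPM followed LMO2 most closely over the 9 libraries, among 10160 candidates, were USP3, a ubiquitin protease (Pearson's r 0.9986), MAL, a T-cell membrane protein (0.998), SLAMF6, a lymphocyte receptor (0.9978), and TPT1 (0.9978). MAL fell by 0.70 in the knockdown and by 1.66 with MYC against shDHX15, and SLAMF6 by 0.54 and 1.27, larger steps than the 0.45 and 1.14 of LMO2. The 9 points fall in 3 groups, so that r mostly restates the group means. For LYL1 the highest r was 0.7157 (PGM2), over counts of 1 to 12, and no likeness is read from it.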

How the data were processed

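Poly(A) RNA libraries of KOPTK1 cells, 3 per group, were analysed from a table of unscaled counts of reads per gene, whole numbers deposited by the authors. Per the submitters' processing notes, FastQC 0.11.9, HISAT2 2.2.1 and DESeq2 1.32.0 were used with hg38; the program that counted reads, and its annotation, were not given in the sources used here. Columns were joined to samples by name: those named for a GFP hairpin were taken as shControl, and those named for a numbered hairpin, with or without MYC, as shDHX15_MYC and shDHX15.

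Genes passing filterByExpr (15309 of 17637) were scaled by TMM and fitted with edgeR 4.0.16 (R 4.3.3; quasi-likelihood, 1 mean per group over 9 libraries). Tests were 2-sided, the Benjamini-Hochberg adjustment ran over all 15309 genes, and genes were called at an adjusted p under 0.05; every adjusted p in the text is from this model unless another setting is named. The steps were tested on simulated data for shDHX15 against shControl, with 50 genes changed by each fold. Of changes of 1.25-fold 58% were recovered, of 1.5-fold 90% and of 2-fold 100%. Among 14534 genes tested there, 15 unchanged ones were called. A difference under 1.25-fold that was not called may therefore have been missed. Libraries with the same number did not deviate together (r from -0.0239 to 0.0412 over 9 pairs), so they were not paired. Alternatives were total-count and RLE scaling, DESeq2 1.42.0, other filters, a replicate block, only the groups compared, and leaving out each library; levels per longest coding transcript were added after seeing the data.

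Coordinates and lengths are from GENCODE v29 (GRCh38). Members and lists were chosen with earlier results of these data known. Named were all 8 factors, every gene of the LIM, bHLH and GATA/RUNX/ETS lists, and of each other list, among up to 4 called genes per direction and comparison with the smallest adjusted p, those given here; GFI1B and CTCF were named after their values were seen.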

Additional observations from a re-analysis of the deposited data

How the results depend on the processing

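Over the 16 alternatives, 325 of 333 values for the factors stayed on their side of the threshold with no called value changing sign, 2 lost a call, 2 gained one and 4 reversed. Of the 325, 1 changed sign without a call in either fit: LDB1 in shDHX15 against shControl went from -0.06 to 0.00391 under total-count scaling. Over all named genes 59 such uncalled values changed sign. The number of factors called in shDHX15 against shControl was 3, and 2 under total-count scaling; leaving out each library gave 3 to 4. With MYC it was 7 in both comparisons, and 5 in a fit of only genes whose mean log2 CPM was 3 or higher, where HHEX was not tested. With the replicate block 3, 7 and 7 factors were called, and the block changed no call of a factor.

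Reversals with a call in either fit came only from total-count scaling and from keeping only those well-expressed genes. Against shDHX15 these gave, in that order, 0.0773 and 0.0774 for LDB1, 0.158 and 0.158 for CTCF, 0.0258 and 0.026 for CAPRIN1, and 0.0891 and 0.0892 for KIF11. Against shControl they gave 0.0812 and 0.0292 for LDB1, 0.109 and 0.0572 for SSBP4, 0.144 and 0.0919 for RCOR1, 0.0739 and 0.0218 for CDK6, 0.152 and 0.1 for EZH2, 0.183 and 0.131 for CTCF, 0.130 and 0.0779 for STIL, 0.0851 and 0.0329 for CMPK1, and 0.0547 and 0.00271 for RCAN1. These settings shift all genes by 0.199 and 0.199 against shDHX15 and by 0.265 and 0.213 against shControl, more than the changes of these genes. Depth limits LYL1, with 1 to 12 counts per library.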

Other observations

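Transcriptional regulators that are recurrently lost or mutated in T-ALL were measured as a further list of 13, which includes RUNX1. In the knockdown 3 rose and 4 fell (median -0.07), beside 22.0% and 23.0% of all genes, with IKZF1 lower by 0.35 and TCF7 by 0.24. With MYC against shDHX15, 9 fell and 2 rose (median -0.53; 4 rose under total-count scaling); all 13 are well-expressed, and 54.4% of such genes fell, as did 42.6% of all genes. BCL11B, a factor of T-cell commitment, fell from 266.9 to 70.71 ± 2.62 CPM (-1.92, edgeR adjusted p = 2.72e-16), LEF1 from 527.5 to 178.2 ± 1.56 (-1.57) and TCF7 from 828.4 to 460.4 ± 6.04 (-0.85). CNOT3, a subunit of the deadenylase complex, rose from 79.41 to 162.1 ± 3.39 CPM (1.03, adjusted p = 2.47e-14).

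Of 12 corepressors and coactivators of these factors, RUNX1T1 passed the filter only through its level in shDHX15_MYC and is left out of the counts. Of the other 11, 5 rose and 3 fell in the knockdown (3 rose without shControl replicate 1 or 3 or shDHX15 replicate 2 or 3), beside 22.0% and 23.0% of all genes. After MYC was added to the knockdown, 4 rose and 6 fell (median -0.30), beside 42.1% and 42.6%. The acetyltransferases CREBBP and EP300 rose by 1.20 and 0.95 with MYC, to 210.0 and 186.0 CPM, while KAT2B fell by 0.75. KDM1A and RCOR1, which GFI1 recruits, fell by 0.52 and 0.30, and the corepressor SIN3A fell by 0.69.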
